A study of Mus musculus with 12 samples.

Results

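The 46 genes described here encode proteins of the lysosome and of autophagy. They were taken by name from the probes of a mouse expression array, with the older names Tcfeb and Tcfe3 standing for Tfeb and Tfe3, and all 46 were found, with 63 of the 55681 probes and 46 of the 35079 gene names. They fall into 8 lysosomal membrane proteins, 10 genes for cathepsins and legumain, 7 for glycosidases and acid lipase, 3 for soluble lysosomal cofactors, 8 for subunits of the vacuolar proton pump (V-ATPase), 3 for transcription factors of the MiT/TFE family and 7 for the autophagy machinery.

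The 12 arrays form 4 groups of 3 samples. The first is RAW264.7, a mouse macrophage-like line, transfected with a short hairpin RNA against Abhd5 (knockdown), and the second is RAW264.7 transfected with the vector PLKO (control). The third is CT-26, a mouse colon carcinoma line, primed by the knockdown macrophages, and the fourth is CT-26 primed by control macrophages. The labels name the vector for the RAW264.7 controls alone, and every CT-26 sample was primed by macrophages. No time, dose, priming method or separation of the cell types is given in the labels, nor whether the hairpin cells were 1 clone, nor whether the 3 samples of a group were separate cultures, so p-values measure the spread between these samples, which may be technical.

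The lysosome is the acidic compartment in which cells take apart proteins, lipids and sugars. V-ATPase pumps in the protons, cathepsins and glycosidases cut the cargo, and the membrane proteins protect the compartment and carry its products out. Autophagy wraps cytoplasm, including lipid droplets, in a membrane that fuses with the lysosome, and TFEB, TFE3 and MITF are transcription factors that can switch on genes of both systems when nutrients are short or lysosomes are stressed. The protein made from Abhd5 switches on ATGL, a lipase at the lipid droplet, and so serves a route to fatty acids that runs beside the lysosomal one.

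Abhd5 checked the labels. Its log2 level, here as everywhere relative to the array's 75th percentile, was 0.25, 0.23 and 0.39 in knockdown RAW264.7 cells against 1.38, 1.93 and 1.52 in controls, a change of -1.32 ± 0.20 (SE, n = 3 each, limma adjusted p = 0.00346), to 40.0% of the control level. In CT-26 cells its change was 0.07 ± 0.15 (adjusted p = 0.776). All 12 macrophage markers were higher in control RAW264.7 than in control-primed CT-26 cells. Of 10 carcinoma markers 8 were tested: 5 were lower in RAW264.7 cells (among them the keratin genes Krt18 and Krt20), 1 was higher and 2 were not called. Epcam and Cdh1, which define epithelial cells, were not well above background on any knockdown-primed array and on at most 1 control-primed array. RAW264.7 control replicates 1 and 2 lay on slide 1, control replicate 3 and the 3 knockdown arrays on slide 2, and all CT-26 arrays on slide 3, each slide with its own scan. Spots well above background made up 69.0% to 73.0% on the knockdown RAW264.7 arrays, 56.5% and 57.9% on the 2 control arrays of slide 1 and 72.7% on the control array of slide 2. Replicates correlated between 0.979 and 0.995.

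Knockdown of Abhd5 in RAW264.7 cells left most of the lysosome and autophagy genes without a detectable change, and raised 2 of them many times over. Gpnmb, a lysosomal membrane glycoprotein, rose 30.5-fold, and Ctsh, the gene for the cysteine protease cathepsin H, rose 24.6-fold. Another 5 genes rose by less, Lamp2, Atp6v0a1, Atp6v1c1, Atg7 and Ctsc, and 2 fell, Tfeb and Hexa. On each of the 6 arrays all 46 genes were well above background, and all were tested. The 9 that passed the threshold (limma, Benjamini-Hochberg adjusted p under 0.05) make 19.6% of the 46, beside 22.8% of all 25458 genes tested, so the share that changed was near that of the array as a whole. Among all genes 7.94% rose and 14.9% fell, and among these 46 genes 7 rose and 2 fell. The median change was 0.20 over the 46 genes and -0.30 over all genes. The median over all genes was -0.06 after centring arrays on the median and -0.08 after quantile normalization, which both bring it near 0 by construction. Under those 2 other scalings 9 rose and 1 fell, and 10 rose and 1 fell, with all 7 rises and the fall of Tfeb kept and Hexa lost. Of 16 genes with several probes, 4 had probes of opposite sign: Atp6v0a1, Ctsd, Gaa and Mcoln1. Each array reads the RNA of a bulk sample, in which more RNA per cell and more cells that hold it cannot be told apart.

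**Figure D1:**
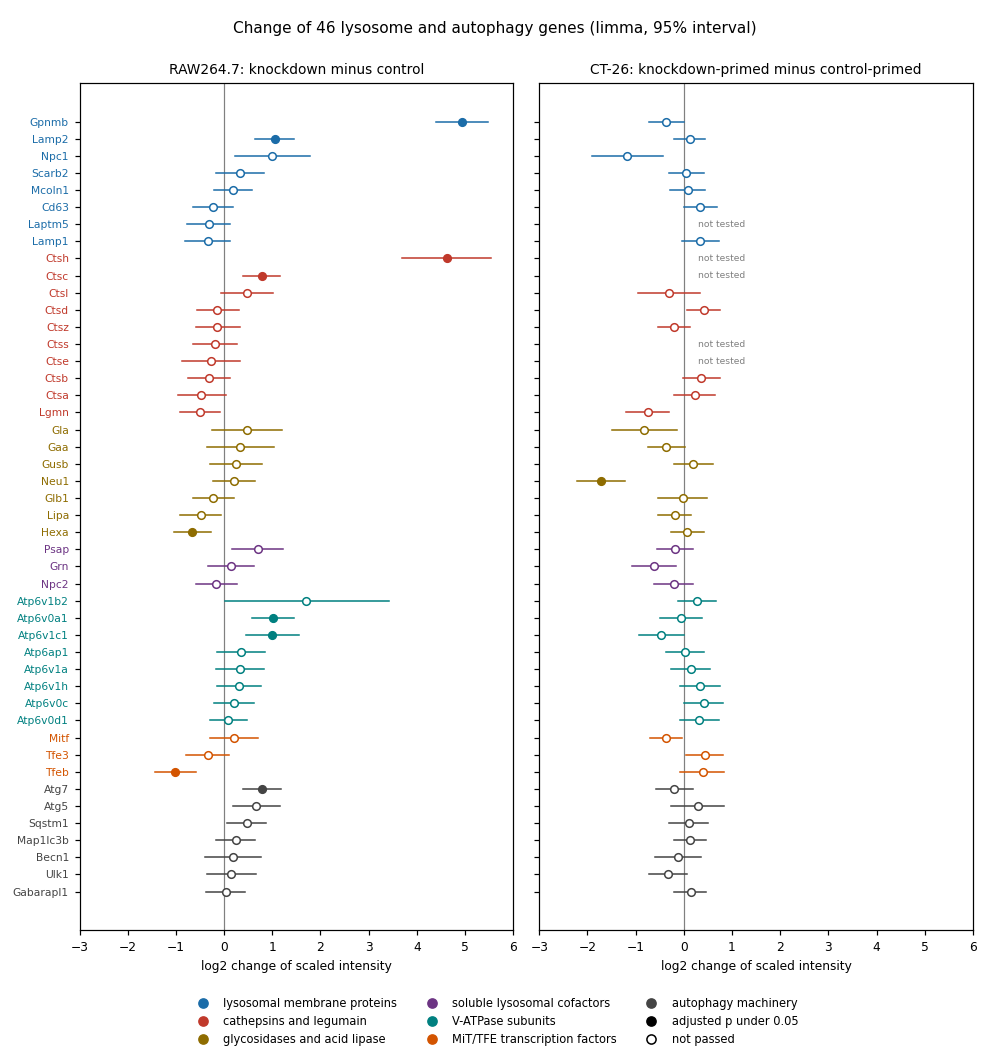
Log2 change of each of the 46 genes (horizontal axis) in RAW264.7 cells, knockdown minus control (left), and in CT-26 cells, knockdown-primed minus control-primed (right), with the 95% interval of the limma fit and n = 3 per group; colours give the role, filled points passed an adjusted p of 0.05, and 5 genes were not tested in CT-26 cells. Gpnmb (4.93) and Ctsh (4.62) stand far to the right in RAW264.7 cells, and Neu1 (-1.72) is the only filled point in CT-26 cells.

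The 2 large rises belong to different kinds of lysosomal protein. GPNMB is a single-pass glycoprotein of late endosomes and lysosomes that is abundant in lipid-laden macrophages, and cathepsin H is unusual among cathepsins in trimming proteins from the amino end. Each gene was read by 1 probe of 60 bases, shown here because the largest changes rest on them, with their positions on mm9 as the scanner files give them.
Gpnmb probe, chr6:49006386-49006445, plus strand: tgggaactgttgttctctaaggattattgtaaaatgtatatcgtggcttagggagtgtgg
Ctsh probe, chr9:89970828-89970887, plus strand: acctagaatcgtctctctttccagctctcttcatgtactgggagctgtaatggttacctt

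The log2 level of Gpnmb was 1.94, 1.60 and 1.29 in knockdown cells and -3.67, -3.20 and -3.1 in controls. Every knockdown array stood more than 4 log2 units above every control array, and the change was 4.93 ± 0.24 (SE, adjusted p = 8.99e-06). Ctsh had 1.47, 1.08 and 1.06 in knockdown cells and -3.95, -3.93 and -2.37 in controls, a change of 4.62 ± 0.40 (adjusted p = 1.83e-04). The groups again did not overlap, but the control array on slide 2 was the highest of its group. Within slide 2 alone, with that 1 control array, the change of Ctsh was 3.57, against 4.71 for Gpnmb.

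Of the 8 lysosomal membrane genes, Gpnmb and Lamp2 rose, none fell and 6 did not pass. Lamp2 encodes one of the main glycoproteins of the lysosomal membrane, whose splice forms serve fusion with autophagosomes and chaperone-mediated autophagy. It had 3.22, 3.22 and 3.18 in knockdown cells and 2.01, 2.40 and 2.07 in controls, a 2.07-fold rise (log2 change 1.05 ± 0.18, adjusted p = 0.00651). The knockdown arrays lay within 0.04 of each other and above every control. Lamp1, the gene for the partner glycoprotein, had 4.67, 4.79 and 4.61 in knockdown cells against 4.82, 5.38 and 4.91 in controls (change -0.34 ± 0.20, adjusted p = 0.213). Laptm5, Cd63, Scarb2 and Mcoln1, the gene for the lysosomal calcium channel, had changes of -0.32 to 0.34. Npc1, the gene for the cholesterol exporter of the lysosome, had a change of 1.0 ± 0.34 that missed the threshold (adjusted p = 0.0629), with 1 control array at -0.65 and the others at 0.71 and 0.63.

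The rise of Lamp2 is read here from 1 probe, shown because it carries that call.
Lamp2 probe standing for the gene, chrX:35777505-35777564, minus strand: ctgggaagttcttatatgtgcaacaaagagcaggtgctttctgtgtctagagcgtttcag

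Of the 10 genes for cathepsins and legumain, Ctsh and Ctsc rose, none fell and 8 did not pass. Ctsc encodes cathepsin C, which activates serine proteases of immune cells. It had 2.46, 2.43 and 2.19 in knockdown cells and 1.55, 1.62 and 1.58 in controls, a 1.72-fold rise (log2 change 0.78 ± 0.17, adjusted p = 0.0178). Its second probe had a change of 1.79 ± 0.34 (adjusted p over all probes = 0.00644) but was well above background on only 2 of 3 control arrays. The other 8 genes, among them Ctsb, Ctsd, Ctsl and Ctss for the main endoproteases of macrophage lysosomes, had changes between -0.50 for Lgmn (adjusted p = 0.0714) and 0.48 for Ctsl (adjusted p = 0.148). The median of the 10 was -0.16 and turned positive after median centring (0.08) and quantile normalization (0.30).

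**Figure D2:**
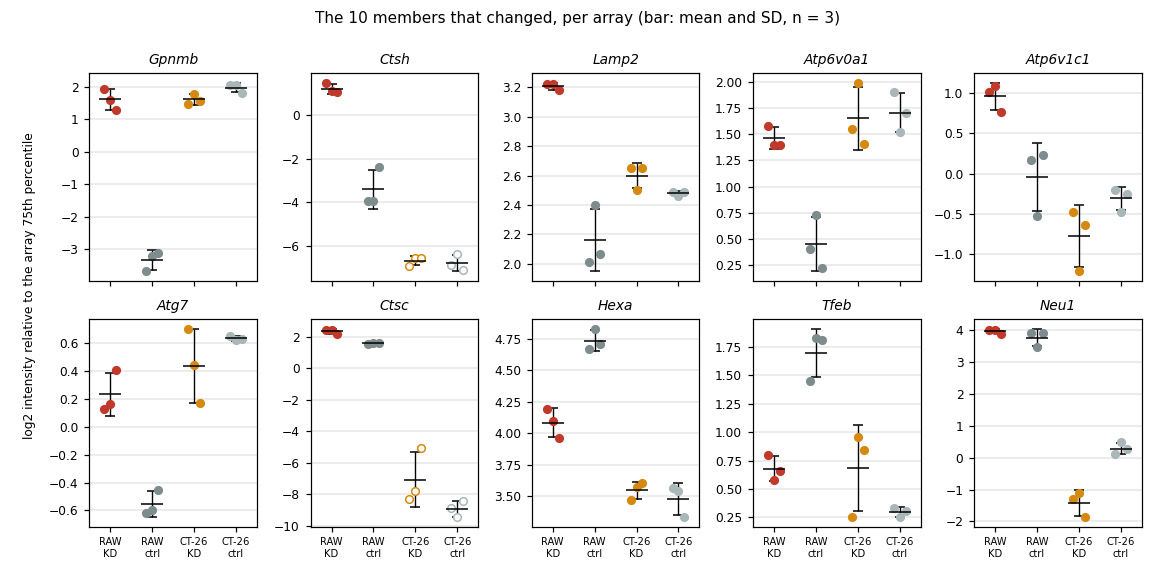
Log2 intensity relative to the array's 75th percentile (vertical axis) for the 9 genes that changed in RAW264.7 cells and for Neu1, which changed in CT-26 cells, on each of the 12 arrays: RAW KD and RAW ctrl are the knockdown and control macrophages, CT-26 KD and CT-26 ctrl the cells primed by them. Points are arrays, bars are mean and SD (n = 3), and hollow points mark a group in which the probe was not well above background on all 3 arrays; Gpnmb is at 1.29 to 1.94 in knockdown and -3.67 to -3.1 in control RAW264.7 cells, and Neu1 is at -1.87 to -1.10 in knockdown-primed and 0.13 to 0.48 in control-primed CT-26 cells.

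Of the 7 genes for glycosidases and acid lipase, Hexa alone passed the threshold, and it fell. Hexa encodes the alpha subunit of beta-hexosaminidase, which breaks down the ganglioside GM2. It had 4.19, 4.10 and 3.96 in knockdown cells and 4.67, 4.83 and 4.71 in controls, a change of -0.66 ± 0.17 (adjusted p = 0.031), to 63.5% of the control level. The groups did not overlap, but the call was lost with median centring (-0.42, adjusted p = 0.118) and quantile normalization (-0.29, adjusted p = 0.186). Lipa, the gene for the acid lipase that frees fatty acids and cholesterol from lysosomal lipid, had 3.54, 3.45 and 3.42 in knockdown cells and 4.03, 4.16 and 3.69 in controls (change -0.49 ± 0.19, adjusted p = 0.0814). The other 5 genes had changes of -0.23 to 0.47. For Gusb, the gene for beta-glucuronidase, a second, dimmer probe had a change of 0.78 ± 0.23 (adjusted p over all probes = 0.038) where the probe standing for the gene had 0.25.

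None of the 3 genes for soluble cofactors passed the limma threshold, and 1 had an unadjusted p under 0.05. This was Psap, the gene for the precursor of the saposins, small proteins that hand lipids to the hydrolases. It had 3.35, 3.12 and 3.11 in knockdown cells and 2.44, 2.12 and 2.92 in controls (change 0.70 ± 0.23, adjusted p = 0.0581). Grn, which encodes progranulin, and Npc2, which encodes the soluble cholesterol carrier, had changes of 0.14 and -0.16.

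Of the 8 genes for V-ATPase, Atp6v0a1 and Atp6v1c1 rose, none fell and 6 did not pass. The changes of all 8 lay between 0.09 and 1.71, with a median of 0.34, which was also positive under each other scaling (0.33 to 0.62). Atp6v0a1 encodes a form of the large membrane subunit that guides protons through the pump. It had 1.58, 1.40 and 1.40 in knockdown cells and 0.40, 0.73 and 0.22 in controls, a 2.01-fold rise (log2 change 1.01 ± 0.19, adjusted p = 0.0109). Atp6v1c1 encodes subunit C, which helps hold the soluble and membrane sectors together, and had 1.02, 1.09 and 0.77 in knockdown cells and 0.17, -0.52 and 0.23 in controls (log2 change 1.0 ± 0.24, adjusted p = 0.024). In neither gene did the groups overlap. A second Atp6v0a1 probe, well above background on 2 knockdown and 1 control array, had a change of -0.18 ± 0.41. Atp6v1b2, for an ATP-binding subunit, had the largest change of the 8 without passing, 1.71 ± 0.75 (adjusted p = 0.112): its knockdown arrays had 1.69, 1.15 and 1.25, and its control arrays 0.61, 0.80 and -2.45, the last on slide 2. For Atp6v1a, the other ATP-binding subunit, a second probe had a change of 0.91 ± 0.20 (adjusted p over all probes = 0.0144) where the brighter probe had 0.33 ± 0.22.

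Tfeb fell in knockdown cells and the other MiT/TFE genes among the 46 did not pass. Tfeb had 0.80, 0.58 and 0.66 in knockdown cells and 1.45, 1.83 and 1.81 in controls, a change of -1.02 ± 0.19 (adjusted p = 0.00872), to 49.4% of the control level. The lowest control array stood above the highest knockdown array by more than 0.6 log2 units. Tfe3 had 3.08, 3.22 and 3.22 in knockdown cells and 3.22, 3.81 and 3.51 in controls (change -0.34 ± 0.20, adjusted p = 0.207). Mitf had 0.68, 1.04 and 1.0 in knockdown cells and 0.93, 0.82 and 0.35 in controls (change 0.20 ± 0.22, adjusted p = 0.477). The array measures RNA only, and the activity of these factors, which depends on their entry into the nucleus, was not measured. Tfeb had 2 probes, far apart within chromosome 17, which are shown because the fall of a regulator is read from them.
Tfeb probe standing for the gene, chr17:47929089-47929148, plus strand: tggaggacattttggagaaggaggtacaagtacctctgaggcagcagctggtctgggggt
Tfeb second probe, chr17:47876857-47876916, plus strand: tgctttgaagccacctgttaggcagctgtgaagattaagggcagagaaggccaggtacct
The second Tfeb probe had means of -5.28 in knockdown cells and -4.51 in controls, close to background, with a change of -0.76 ± 0.29 (adjusted p over all probes = 0.0658).

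Of the 7 autophagy genes, Atg7 rose, none fell and 6 did not pass. Atg7 encodes the enzyme that activates the ubiquitin-like proteins LC3 and ATG12 for coupling to the forming membrane. It had 0.13, 0.16 and 0.41 in knockdown cells and -0.62, -0.60 and -0.45 in controls, a 1.73-fold rise (log2 change 0.79 ± 0.17, adjusted p = 0.0182), while its second probe had a change of 0.51 ± 0.29 (adjusted p over all probes = 0.168). Map1lc3b, the gene for LC3B itself, had 1.05, 0.87 and 1.22 in knockdown cells and 0.81, 0.74 and 0.86 in controls (change 0.25 ± 0.18, adjusted p = 0.298). Atg5 had a change of 0.67 ± 0.22 that missed the threshold (adjusted p = 0.0543), and Becn1, Ulk1 and Gabarapl1 had changes of 0.19, 0.15 and 0.03.

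Sqstm1, the gene for the cargo receptor p62, gave 2 answers. The bright probe that stood for the gene had 4.57, 4.89 and 4.68 in knockdown cells and 4.35, 4.19 and 4.19 in controls, a change of 0.47 ± 0.18 that missed the threshold (adjusted p = 0.08) and passed it under median centring (0.71), quantile normalization (0.89) and normexp background correction (0.66). The second probe, much dimmer, had -1.74, -1.58 and -1.32 in knockdown cells and -3.23, -3.14 and -3.16 in controls, a change of 1.63 ± 0.20 (adjusted p over all probes = 9.16e-04). Neither probe's groups overlapped. Their sequences are shown because the call on Sqstm1 depends on which is read.
Sqstm1 probe standing for the gene, chr11:50015985-50016044, minus strand: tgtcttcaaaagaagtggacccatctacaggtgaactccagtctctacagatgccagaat
Sqstm1 second probe, chr11:50012868-50012927, minus strand: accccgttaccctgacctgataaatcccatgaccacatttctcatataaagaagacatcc

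The slides bear on these calls, since 2 of 3 control arrays lay on a slide with no knockdown array. With the slide as a block 4 of the 46 genes passed, beside 4.58% of all genes: Gpnmb, Ctsh and Atp6v0a1 of the original 9, and Atp6v1b2, whose low control array then stood alone for the controls. Lamp2 (1.14, adjusted p = 0.0509) and Tfeb (-1.13, adjusted p = 0.0577) kept their size and missed the threshold. Since slide 1 held no knockdown array, the block fit sets the knockdown arrays against control replicate 3 alone. It draws on control replicates 1 and 2 for the spread only. Within slide 2 the controls are that same single array, so calls there are not counted. The 2 settings give the same sizes of change and are no separate checks. The number called was also set by single libraries: without knockdown replicate 2 only 4 genes passed (Gpnmb, Ctsh, Lamp2 and Atp6v0a1), without knockdown replicate 3 only 5 (the same with Tfeb), and without control replicate 3, 12. The share of all genes that passed in these fits is not given here, so the counts do not set the 46 genes apart from the rest.

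**Figure D3:**
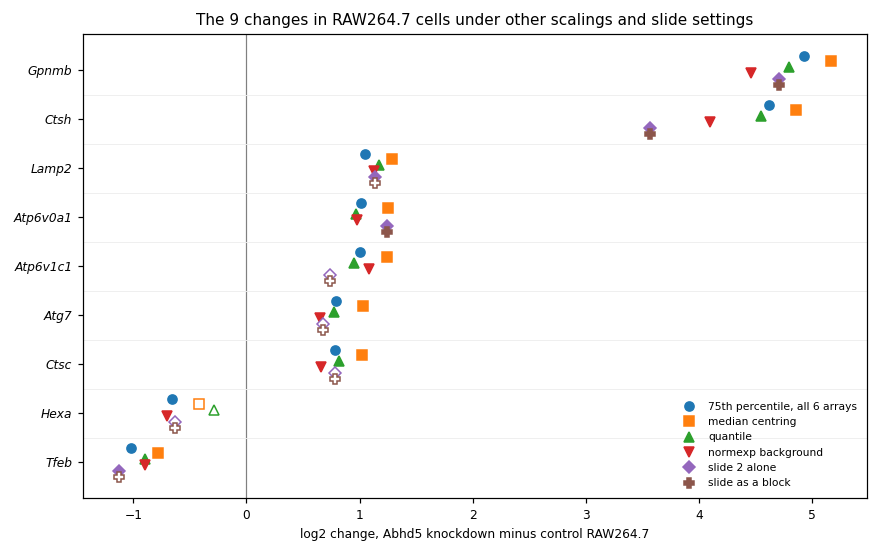
Log2 change in RAW264.7 cells, knockdown minus control (horizontal axis), of the 9 genes that passed, under 4 scalings of all 6 arrays, with the slide as a block and within slide 2 by itself; filled symbols passed an adjusted p of 0.05. No gene crosses zero, and under the 4 scalings Hexa alone is hollow, with median centring and with quantile normalization. The slide block and slide 2 by itself both set the knockdown arrays against control replicate 3 alone, so they are no separate checks.

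The promoters of these genes were searched for the letters CACGTG, the core of the E-box that MiT/TFE factors and other basic helix-loop-helix factors bind. RefSeq promoter sequences (GRCm38.p6, from 250 bases before to 50 bases after the start) were at hand for 38 of the 46 genes. On either strand, 13 of the 38 (34.2%) held CACGTG, beside 8.09% of 27025 genes with a promoter sequence and 21.6% of 97 other lysosome and autophagy genes. The longer TCACGTGA, which contains the core, was in 6 of the 38 (15.8%) and in 1.12% of all. The full palindrome of the CLEAR element, the motif named for coordinated lysosomal genes, which adds 1 base on each side, was in 0 of the 38 and in 0.37% of all, and TCATGTG was in 6 of the 38 (15.8%) and in 4.31% of all. These windows are shown because the motif is a feature that many of the genes share. Since the CLEAR element is named for lysosomal genes, its core's share among them is a description and no test. The core is in capitals, with 1 window per gene where a promoter held several.
Atg5, chr10:44268315-44268340, plus strand: gagcgcttgcCACGTGgtcttggtga
Atg7, chr6:114670954-114670979, plus strand: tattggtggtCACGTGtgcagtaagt
Atp6v0d1, chr8:105566052-105566077, minus strand: ctactgcggtCACGTGagacgcggtg
Atp6v1a, chr16:44139375-44139400, minus strand: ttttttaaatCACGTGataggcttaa
Ctsa, chr2:164833751-164833776, plus strand: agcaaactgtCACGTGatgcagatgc
Ctsd, chr7:142387910-142387935, minus strand: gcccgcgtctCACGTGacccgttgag
Ctsl, chr13:64370741-64370766, minus strand: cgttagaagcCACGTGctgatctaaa
Gaa, chr11:119267813-119267838, plus strand: tctgtgcgatCACGTGtttgactctg
Gla, chrX:134601184-134601209, minus strand: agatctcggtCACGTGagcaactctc
Glb1, chr9:114401020-114401045, plus strand: gcttctgagtCACGTGgcctacagag
Lamp1, chr8:13159090-13159115, plus strand: ggcaagatatCACGTGgtccagcgcc
Lgmn, chr12:102439126-102439151, minus strand: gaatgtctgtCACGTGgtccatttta
Mcoln1, chr8:3500464-3500489, plus strand: gcgccccgctCACGTGaccgcggcgc
Among the 9 genes that changed in RAW264.7 cells, 7 had a promoter sequence and 1 of these, Atg7, held the motif. The 250 bases before the start of Gpnmb, the gene with the largest rise, held no CACGTG.
Gpnmb, chr6:49036268-49036517, plus strand: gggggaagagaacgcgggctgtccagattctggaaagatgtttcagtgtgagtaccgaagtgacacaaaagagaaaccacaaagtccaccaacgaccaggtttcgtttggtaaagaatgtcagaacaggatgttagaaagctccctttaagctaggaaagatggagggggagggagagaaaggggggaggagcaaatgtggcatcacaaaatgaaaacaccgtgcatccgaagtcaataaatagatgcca
A match to these letters is a description of sequence, not a measured binding site, and its absence says only that the letters are not in this window.

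A list of 123 other lysosome and autophagy genes was chosen by pathway, with earlier results of these data known. It held in RAW264.7 cells a few large rises and many small or undetected changes. Of 120 tested, 10 rose and 8 fell (15.0%, beside 22.8% of all genes), with a median of 0.07. Median centring turned the split to 16 higher and 2 lower, quantile normalization to 12 and 4, and normexp to 13 and 14. The 5 largest rises were in Ctsk, Atp6v0d2, Tfec, Acp5 and Laptm4b, and all 5 were called with the slide as a block, the only ones of the list that were. Several are best known from osteoclasts: Ctsk encodes the collagen-cutting cathepsin K, Acp5 the tartrate-resistant acid phosphatase, and Atp6v0d2 a V-ATPase subunit of osteoclasts and macrophages. Tfec encodes a further member of the MiT/TFE family, found in macrophages.

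Ctsk had 3.17, 2.71 and 2.77 in knockdown cells and was well above background on no control array, a rise of at least 303-fold. The bound sets the knockdown mean against the controls' mean, in which each control array counts with the dimmest signal that it showed well above background, or with the Ctsk signal itself where that was higher. Atp6v0d2 rose at least 75-fold on the same footing (0.87 on average in knockdown cells) and Tfec at least 32.6-fold (-0.33 on average). Neither was well above background on any control or CT-26 array. Ctsk, Atp6v0d2 and Tfec entered the test through knockdown cells alone, where they are high, and could only be called higher. Acp5 was detected everywhere, with 4.57, 4.72 and 4.71 in knockdown cells and 0.65, 0.45 and 0.87 in controls (log2 change 4.01 ± 0.18, adjusted p = 7.01e-06). Laptm4b, for a lysosomal membrane protein of the Laptm5 family, had 2.16, 1.42 and 1.35 in knockdown cells and -1.49, -1.59 and -1.90 in controls (log2 change 3.30 ± 0.25, adjusted p = 8.78e-05). In Acp5 and Laptm4b, which were measured in both groups, the knockdown arrays stood apart from the controls by at least 2.8 log2 units.

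The 5 largest falls of that list were smaller and rested more on the setting. Atp6v1g2, for a V-ATPase subunit best known from neurons, had a change of -1.10 (adjusted p = 0.0336). Atg16l2, a relative of the autophagy scaffold gene Atg16l1, had -1.02 (adjusted p = 0.00892), with 1.60, 1.40 and 1.12 in knockdown cells and 2.45, 2.36 and 2.37 in controls. Atp6v0e2 had -0.90 (adjusted p = 0.0388), Lamp3 -0.88 (adjusted p = 0.0158) and Arsb, for arylsulfatase B, -0.83 (adjusted p = 0.0184). None of the 5 passed with the slide as a block. The count of 18 fell to 6 without knockdown replicate 3, to 7 without knockdown replicate 2, to 8 without control replicate 1 and to 9 without knockdown replicate 1. For these fits, too, the share of all genes is not given here.

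**Figure D4:**
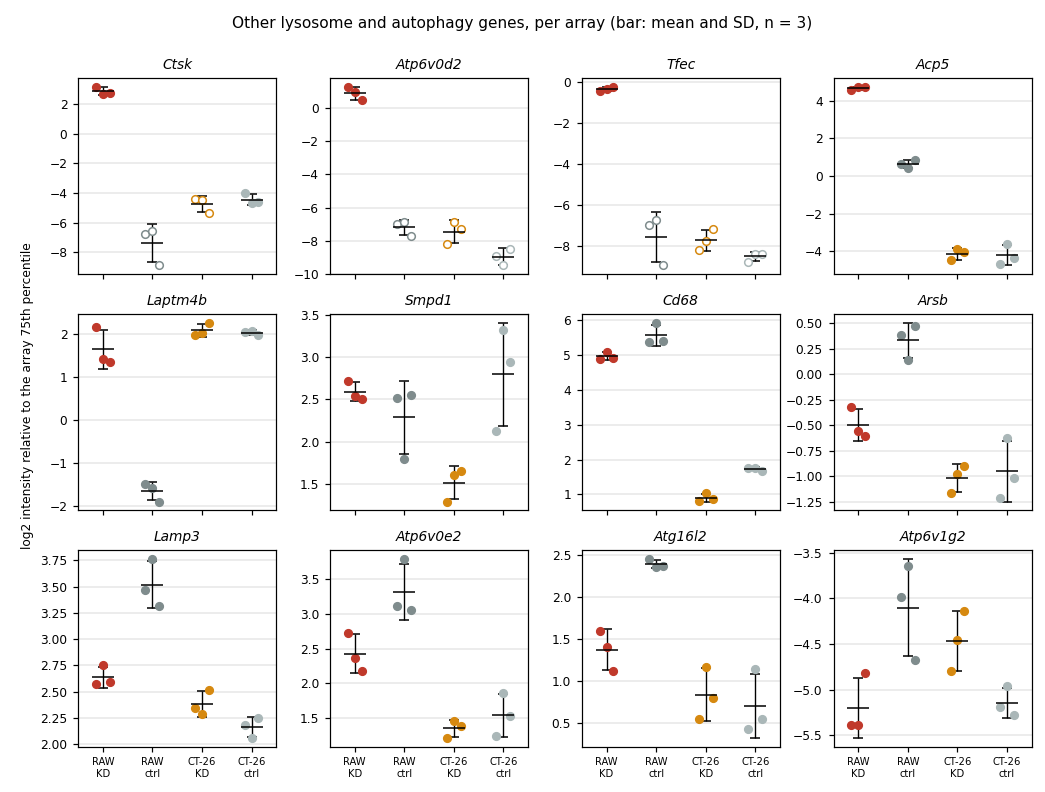
Log2 intensity relative to the array's 75th percentile (vertical axis) on each array for the 10 other lysosome and autophagy genes with the largest rises and falls in RAW264.7 cells and for Smpd1 and Cd68, which fell in CT-26 cells; groups, bars (mean and SD, n = 3) and hollow points as in the plot of the genes that changed. Ctsk, Atp6v0d2 and Tfec are filled in knockdown RAW264.7 cells (means 2.88, 0.87 and -0.33) and hollow in controls.

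Some markers of the macrophage state moved in the same arrays. Of the 12 macrophage markers 4 rose in knockdown RAW264.7 cells, 1 fell and 7 were not called (41.7% called, beside 22.8% of all genes). Fcgr3 rose by 2.92, Adgre1 by 2.86, Lyz2 by 1.88 and Cd53 by 0.84, and Coro1a fell, with a change of -0.63. The summed linear level of the 12 was 298 to 334 in knockdown cells and 260 to 295 in controls, in units of the array's 75th percentile. The part of these markers in the changes of the lysosome and autophagy genes was not tested.

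In CT-26 cells priming by knockdown macrophages, set against priming by control macrophages, was followed by a lower level of 1 of the 41 genes that could be tested. Neu1, the gene for the lysosomal sialidase, fell to 30.4% of the control level. The other 40 did not pass (limma, 0 higher, with 3 higher and 6 lower at an unadjusted p under 0.05), and 1 of 41 is 2.44%, beside 6.36% of all 24995 genes tested, of which 3.15% were higher and 3.21% lower. The median change was 0.05 over the 41 genes and 0.11 over all genes, and the first turned to -0.11 with quantile normalization. Laptm5, Ctsc, Ctse, Ctsh and Ctss were not tested, because no probe of theirs cleared background on every array of at least 1 group.

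Neu1 had -1.29, -1.10 and -1.87 in knockdown-primed cells and 0.13, 0.48 and 0.26 in control-primed cells, a change of -1.72 ± 0.22 (SE, n = 3 each, adjusted p = 0.00765). The groups were apart by more than 1 log2 unit. The call held without each array in turn and under each scaling, and was lost only with no filter on dim probes. Neu1 has 1 probe, shown because the change in CT-26 cells rests on it.
Neu1 probe, chr17:35072105-35072164, plus strand: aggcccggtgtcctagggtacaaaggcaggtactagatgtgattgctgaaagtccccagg

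The genes nearest to the threshold in CT-26 cells had lower values too. Lgmn, for the asparaginyl endopeptidase legumain, had a change of -0.75 ± 0.20 (adjusted p = 0.0582), Npc1 of -1.17 ± 0.33 (adjusted p = 0.0643) and Grn of -0.62 ± 0.20 (adjusted p = 0.0867). Lgmn passed under quantile normalization and Lgmn and Npc1 under normexp. The count of 1 went up to 4 without knockdown-primed replicate 1, with Lgmn, Gla and Tfeb beside Neu1, and to 2 without control-primed replicate 1, with Lgmn. Mcoln1 had a second, dim probe with a change of -0.84 ± 0.19 (adjusted p over all probes = 0.0323), where the bright one had 0.08 ± 0.16. Tfeb, with 0.25, 0.96 and 0.84 in knockdown-primed and 0.33, 0.25 and 0.31 in control-primed cells, had a change of 0.39 ± 0.20 (adjusted p = 0.224).

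The other MiT/TFE genes, Lamp1, Sqstm1 and Map1lc3b did not pass in CT-26 cells. Tfe3 had 3.21, 3.65 and 3.56 in knockdown-primed and 3.12, 2.94 and 3.1 in control-primed cells (change 0.43, 95% interval 0.05 to 0.81, adjusted p = 0.133). Mitf had 0.94, 1.05 and 1.08 against 1.48, 1.25 and 1.42 (change -0.36, interval -0.70 to -0.03, adjusted p = 0.143). Lamp1 had 4.65, 4.97 and 5.12 in knockdown-primed cells against 4.50, 4.61 and 4.6 in control-primed cells (change 0.34, interval -0.04 to 0.72). In these 3 genes the groups did not overlap, but the intervals are not adjusted for the number of genes and all 3 adjusted p-values are above the threshold. Sqstm1 had 3.64, 3.89 and 3.95 in knockdown-primed and 3.65, 3.99 and 3.51 in control-primed cells (change 0.11, interval -0.30 to 0.51), and Map1lc3b had 2.46, 2.42 and 2.55 against 2.44, 2.35 and 2.24 (change 0.13, interval -0.20 to 0.46).

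Of the 123 other genes 117 were tested in CT-26 cells, none rose and 2 fell (1.71%, with 15 higher and 16 lower at an unadjusted p under 0.05). Cd68, for the endosomal and lysosomal glycoprotein macrosialin, had 0.81, 1.03 and 0.88 in knockdown-primed and 1.77, 1.75 and 1.68 in control-primed cells (change -0.83 ± 0.15, adjusted p = 0.0209). Smpd1, for acid sphingomyelinase, had 1.29, 1.60 and 1.65 in knockdown-primed and 2.13, 3.32 and 2.94 in control-primed cells (change -1.28 ± 0.28, adjusted p = 0.0347). Both calls were lost without control-primed replicate 2, control-primed replicate 3 or knockdown-primed replicate 3. The call of Smpd1, but not that of Cd68, was also lost without knockdown-primed replicate 1 and without knockdown-primed replicate 2. Macrophage RNA in the CT-26 samples was followed through the 12 markers: 10 were tested, limma called none, and 2 were higher and 1 lower at an unadjusted p under 0.05. Itgam had a level in CT-26 cells close to that in RAW264.7 cells, and the summed level of the other 11 was 6.11 to 8.05 in knockdown-primed and 6.25 to 6.92 in control-primed cells, beside 247 to 267 in knockdown and 197 to 222 in control RAW264.7 cells. Spi1 was well above background on no CT-26 array and Adgre1 on 1. The share of spots well above background was 59.3% to 67.0% on knockdown-primed and 68.3% to 77.3% on control-primed arrays, and its part in these changes was not tested.

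The changes in the 2 cell lines were compared directly by an interaction contrast over all 12 arrays, the change in RAW264.7 cells minus the change in CT-26 cells. Of the 46 genes 12 differed (26.1%, beside 31.4% of all 27071 genes tested, 7.43% higher and 23.9% lower), 9 with the higher change in RAW264.7 cells and 3 with the lower. That split was 10 and 1 with median centring, 14 and 1 with quantile normalization and 11 and 4 with normexp. The largest positive differences were those of Gpnmb (5.29 ± 0.29, adjusted p = 7e-07), Ctsh (4.51 ± 0.51, adjusted p = 1.67e-04), Npc1 (2.17 ± 0.54, adjusted p = 0.0143) and Neu1 (1.92 ± 0.30, adjusted p = 0.0015). For Npc1 neither change passed by itself, and the values were 1.0 in RAW264.7 and -1.17 in CT-26 cells. Ctsh was not well above background in CT-26 cells on any knockdown-primed array, so its difference rests on RAW264.7 cells. The 3 negative ones were Tfeb (-1.40 ± 0.28, adjusted p = 0.00519), Tfe3 (-0.77 ± 0.26, adjusted p = 0.0391) and Hexa (-0.73 ± 0.20, adjusted p = 0.0199), of which only Tfeb also passed with median centring and with quantile normalization. With the slide as a block 7 differed, beside 8.79% of all genes.

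The levels of these genes were also compared between the 2 lines. In control RAW264.7 cells, set against control-primed CT-26 cells, 22 of the 46 genes were higher and 6 lower (60.9%, beside 67.6% of all 25586 genes tested, 42.2% higher and 25.3% lower). Their median difference was 0.51, and quantile normalization turned it to -0.07, with 14 higher and 12 lower. Among the genes for cathepsins and legumain 9 of 10 were called higher as reported, 9 with median centring, 6 with quantile normalization and 8 with normexp. Of these, Ctsc, Ctse, Ctsh and Ctss were tested through RAW264.7 cells alone, where they are high, and could only be called higher. They were called under each of the 4 scalings, so the counts are in part fixed by the filter. The other 6 were well above background in every group. As reported and with median centring, Ctsa, Ctsb, Ctsd, Ctsz and Lgmn were called higher and Ctsl was not called. With normexp the call of Ctsb was lost, and with quantile normalization Ctsa and Lgmn alone were called. None of the 6 was called lower. Cell line and slide cannot be told apart here, and the CT-26 cells had been primed by macrophages.

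The 4 largest differences were in genes that are typical of blood cells or of immune and gastric proteolysis. Laptm5, for a lysosomal protein of blood cells, had 4.53, 4.33 and 4.72 in control RAW264.7 cells against -7.84, -5.62 and -7.75 in control-primed CT-26 cells, a difference of 11.60 ± 0.54. Ctss, for the cathepsin of antigen processing, had 4.78, 5.11 and 4.53 against -6.03, -5.23 and -7.56 (difference 11.08 ± 0.53). Each was well above background on only 1 of the 3 control-primed arrays, so these sizes rest in part on values at background. Ctsc was higher by at least 307-fold and Ctse, for the aspartic protease cathepsin E, by at least 32.8-fold, although a second, dim Ctsc probe was well above background on 1 control-primed array. All 4 entered the test through RAW264.7 cells alone, where they are high, and could only be called higher. Neu1 and Lipa were also higher in RAW264.7 cells, by 3.48 ± 0.20 and 3.21 ± 0.19 on the log2 scale. Neither was the largest difference among the genes for glycosidases and acid lipase, which was 4.56.

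**Figure D5:**
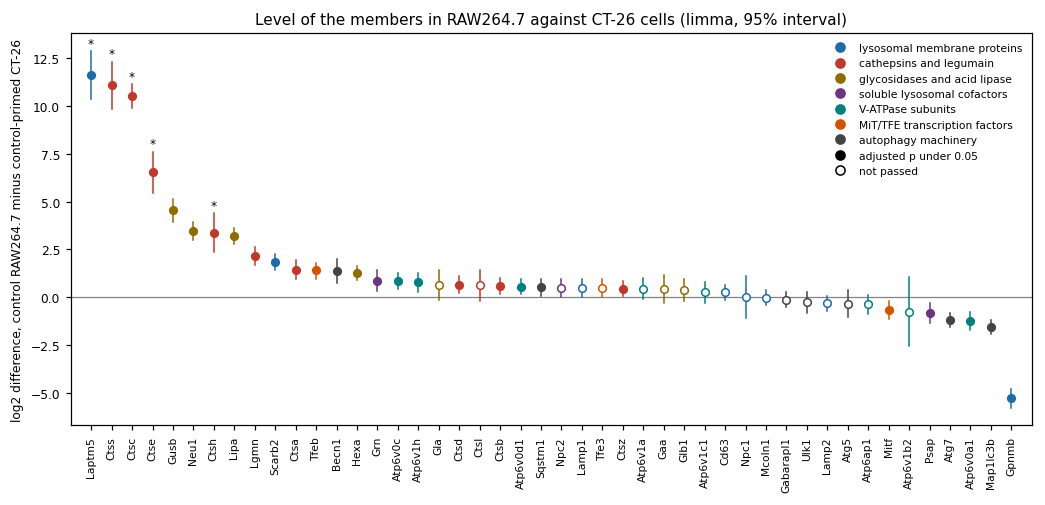
Log2 difference in level between control RAW264.7 and control-primed CT-26 cells (vertical axis) for each of the 46 genes, ordered by size, with the 95% interval of the limma fit (n = 3 each); colours give the role, filled points passed an adjusted p of 0.05, and an asterisk marks genes not well above background on all 3 control-primed arrays. Laptm5, Ctss and Ctsc stand highest, all with an asterisk, so that their heights rest on values at background in CT-26 cells, and Gpnmb is lowest at -5.29.

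The 4 lowest differences were those of Gpnmb, Map1lc3b, Atp6v0a1 and Atg7. Gpnmb had -3.67, -3.20 and -3.1 in control RAW264.7 cells against 2.06, 2.05 and 1.80 in control-primed CT-26 cells (difference -5.29 ± 0.21, adjusted p = 3.61e-07), and its level in knockdown RAW264.7 cells, 1.29 to 1.94, overlapped with that of the CT-26 groups, 1.47 to 2.06. Map1lc3b had 0.81, 0.74 and 0.86 against 2.44, 2.35 and 2.24 (difference -1.54 ± 0.16, adjusted p = 8.93e-05). Atp6v0a1 differed by -1.25 ± 0.20 (adjusted p = 9.87e-04). Atg7 differed by -1.19 ± 0.16 with the probe standing for the gene and by 1.13 with its second probe, so its direction between the lines depends on the probe read.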

How the data were processed

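The 12 samples were profiled on 1-colour Agilent mouse arrays, 1 array each. Spot intensity is linear in the scanner files as deposited, read with Agilent Feature Extraction 10.7.3.1, per the submitters' processing notes, and a processed signal corrected for background, per the file headers. A deposited table of the authors' values, used as an alternative, did not state its scale. Set against the scanner files, its RAW264.7 columns were log2 values, as deposited, normalized to the 75th percentile (medians -3.808, -3.525 and -3.898 for control, -4.012, -3.935 and -3.925 for knockdown), and its CT-26 columns were linear intensity values (medians 274.3, 277.3 and 275.9 for control-primed, 227.4, 132.4 and 174.8 for knockdown-primed). Of the 6 CT-26 columns 5 matched another replicate of their own group.

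The log2 of the processed signal minus the array's 75th percentile was used. Control spots (3671 per array) and outlier-flagged spots (172 to 272) were left out, no spot was saturated, and spots of a probe were averaged. Gene names came through a RefSeq table by accession (26762 probes) or symbol (3819), otherwise from the array design (25100). A gene was read from its brightest probe that cleared background on every array of some group, and tested where that probe did so in either group compared. limma 3.58.1 in R 4.3.3 (lmFit, eBayes, two-sided, Benjamini-Hochberg over all genes tested, threshold 0.05) gave the comparisons and was tested on simulated data. The number of arrays limits the precision.

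The 46 genes, the lists and the tests were chosen with earlier results of these data known. Genes with values on every array are those past the threshold in either cell line, Tfeb, Tfe3, Mitf, Lamp1, Sqstm1 and Map1lc3b, the 4 largest differences of each sign between lines, and, of the 123 others, the 5 largest rises and falls per line. Values of other genes and of second probes were added after they were seen. The sequence and values of 1 further probe are not reported here. Alternatives were median centring, quantile normalization, normexp (offset 50), other filters on dim probes, all probes, all 12 arrays in the fit, the deposited table, slides, replicate blocks and each replicate left out.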

Additional observations from a re-analysis of the deposited data

Results flagged for a closer look

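For 12 of the 46 genes (26.1%, beside 31.4% of all genes tested) the change in RAW264.7 cells and the change in CT-26 cells differed. The test was of the difference itself (limma interaction contrast, log2, RAW264.7 change minus CT-26 change). The difference was 5.29 for Gpnmb, 4.51 for Ctsh, 2.17 for Npc1, 1.92 for Neu1, 1.47 for Atp6v1c1, 1.06 for Atp6v0a1, 0.99 for Atg7, 0.93 for Lamp2 and 0.88 for Psap. It was -1.40 for Tfeb, -0.77 for Tfe3 and -0.73 for Hexa. In Neu1 the difference came with a change of 0.20 in RAW264.7 and -1.72 in CT-26 cells, and in Npc1 with 1.0 and -1.17.

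Among the other genes named, it was 10.59 for Ctsk, 6.57 for Atp6v0d2, 6.44 for Tfec, 3.93 for Acp5, 3.26 for Laptm4b and 1.58 for Smpd1, and -1.78 for Atp6v1g2, -1.39 for Abhd5, -1.16 for Atg16l2, -1.10 for Lamp3 and -0.76 for Arsb. Ctsh, Atp6v0d2 and Tfec were not tested within CT-26 cells. For Ctsk, Atp6v0d2 and Tfec, well above background on no control RAW264.7 array, and for Ctsh in CT-26 cells, these are fitted values that rest on signals at background and no measured sizes. With 3 arrays per group, single arrays were not examined for outliers.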

How the results depend on the processing

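Of 827 results over 50 genes and comparisons under the alternatives, 720 kept their direction and side of the threshold, 98 lost their call, 5 gained one and 4 changed sign. Those 4 passed in neither setting: quantile normalization gave 0.09 for Lamp1 in RAW264.7 cells, and -0.11 for Sqstm1 and -0.03 for Map1lc3b in CT-26 cells, and Abhd5 in CT-26 cells was at -0.01 without knockdown-primed replicate 3 (-0.01 to 0.13 without 1 array). In RAW264.7 cells 9 of the 46 genes passed, 4 with the slide as a block and 4 to 12 without 1 array. Of the 123 other genes 18 passed, 33 with all 12 arrays in the fit, 8 with no filter on dim probes, 5 with the slide as a block and 6 to 24 without 1 array. These counts, and those that follow, are given without the share of all genes in the same fits. In CT-26 cells 1 gene passed, and 2 with quantile normalization, all probes, all 12 arrays or the replicate block, 3 with normexp or with genes well above background on all arrays, 0 with no filter (limma, 2 higher and 5 lower at an unadjusted p under 0.05) and 1 to 4 without 1 array. Of the others 2 passed there, 5 with normexp or all probes, 6 with genes well above background on all arrays, 0 with no filter (12 higher and 12 lower unadjusted) and 0 to 9 without 1 array. The difference between the lines' changes was called for 12 genes, 7 with the slide as a block and 9 to 15 without 1 array, and the difference between lines for 28 and for 20 to 33. Fits within a slide or without 1 array compare fewer arrays, and otherwise the cause of these moves was not tested. Within slide 2 the single control array was assumed to vary like the knockdown arrays.

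The replicate numbers share only a number: deviations of same-numbered samples correlated between -0.0784 and 0.011 in RAW264.7 and between -0.166 and -0.0263 in CT-26 cells. With the replicate block 8 of the 46 genes and 13 of the others passed in RAW264.7 cells, 2 and 2 in CT-26 cells, 24 between the lines and 9 in the difference between the changes. Dim probes limit what can be seen of the 5 genes not tested in CT-26 cells.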
